A study of Mus musculus with 12 samples.

Results

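The genes described here encode the proteins that dock, prime, trigger and fuse transport vesicles: the synaptotagmins (Syt), syntaxins (Stx), SNAP proteins, VAMPs, syntaxin-binding proteins (Stxbp), complexins (Cplx) and synapsins (Syn). Members were all protein-coding genes of the GENCODE M21 mouse annotation whose symbol begins with Syt, Stx, Stxbp, Vamp or Cplx and a number, together with Syn1 to Syn3 and Snap23, Snap25, Snap29, Snap47 and Snap91. The rule used no measured value. Of 41091 gene IDs in the count tables, 57 were members: 17 synaptotagmins, 15 syntaxins, 7 syntaxin-binding proteins, 6 VAMPs, 5 SNAP genes, 4 complexins and 3 synapsins. Vamp7 and Vamp9, which also match the rule, were not analysed here.

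RNA-seq of total RNA was performed on hippocampal mini-slices, acute slices from which the dentate gyrus had been trimmed, taken from C57BL/6 mice (wild type, 2 to 3 months old). LTP slices received 50 uM forskolin for 5 min and then forskolin with 30 mM KCl and 10 mM calcium for the rest of a 10 min treatment, a chemical LTP protocol in which forskolin activates adenylyl cyclase and so raises cAMP. For controls, slices of the same animals received vehicle (0.2% DMSO) over the same 10 min. RNA was taken 1 hr or 3 hr after treatment, which gave 4 groups of 3 libraries, each library from slices of 1 animal. The study kept for sequencing only slices in which PCR showed that LTP had raised Arc and the short Homer1 isoform. The long Homer1 isoform and Hprt had to be unchanged. It set aside 1 hr control replicate 2 as an outlier of its sample clustering. That library is shown but was left out of the fits, so 1 hr controls were fitted with n = 2 and every other group with n = 3.

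Neurotransmitter release follows the assembly of a SNARE complex, in which VAMP on the vesicle zippers with syntaxin and SNAP-25 on the plasma membrane. Syntaxin-binding proteins help or hinder its assembly, complexins clamp and promote fusion, synaptotagmins trigger it when calcium binds, and synapsins tether the reserve pool of vesicles. Related SNAREs act at the Golgi, endosomes and autophagosomes, and Stx3, Stx4 and Snap47, with the synaptotagmin Syt4, also act in dendrites, where LTP adds AMPA receptors to the postsynaptic membrane. All slices were bulk tissue, in which fewer cells of a type and less RNA per cell cannot be told apart.

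Depth was similar in all libraries, from 37118382 to 50815001 counts, so that 3 counts, the floor used here, were worth 0.059 to 0.0808 CPM. CPM values, counts relative to library size, were scaled by TMM, a factor that corrects library size for composition. Replicates of a group differed by more than sampling noise, with a chi-square per degree of freedom of 9.49 to 85.6, and the 2 widest pairs held 3 hr LTP replicate 3 or 1 hr control replicate 2. The immediate early gene Fos rose by a log2 fold change of 1.97 ± 0.08 (SE) at 1 hr and 1.48 ± 0.08 at 3 hr (edgeR adjusted p = 1.67e-09 and 0.000109). Arc, on which slices were selected and which therefore does not check the stimulus, differed by 1.99 ± 0.08 and 1.30 ± 0.06. Markers of neurons, pyramidal cells and glia were all detected, as were those of dentate granule cells, whose 4 markers summed to 120 to 221 CPM. Of 36 marker genes of 8 cell types, edgeR called 0 for LTP at 1 hr and 0 at 3 hr (8 and 5 at an unadjusted p under 0.05, beside 6.71% and 20.22% of all genes), limma-voom 0 and 0, and DESeq2 0 and 1. At 1 hr the 4 endothelial markers summed to 85.8 to 94.3 CPM in controls and 73.8 to 77.1 CPM in LTP slices, and the 4 oligodendrocyte markers to 4230 to 5150 CPM and 4990 to 6020 CPM. Their part in the members' LTP differences was not tested. Between time points the neuron markers (Rbfox3, Snap25, Tubb3, Map2) summed to 5890 to 6030 CPM in 1 hr controls and 4500 to 4680 CPM in 3 hr controls, with only Snap25, itself a member, and Map2 called lower. The 6 pyramidal markers went from 2580 to 2680 CPM to 2870 to 3000 CPM (Fibcd1 and Bok called higher, Iyd lower), and the 4 oligodendrocyte markers from 4230 to 5150 CPM to 5790 to 7120 CPM (Mbp and Mag called higher). Their part in the members' time differences was not tested.

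The members made up 0.947% to 1.06% of all counts in a library. CPM per kb of exonic length were used to compare levels between genes. The study based expression on reads in coding regions, and whether the deposited counts were so limited is not given in the sources used here, so the place of genes with long untranslated exons in this order is uncertain. On that scale Snap25, the neuronal plasma membrane SNARE, was highest at 329 CPM per kb (range 261 to 423 over 11 libraries), and no other member reached its range. Syt1, the calcium sensor for fast synchronous release, followed at 174 CPM per kb, Cplx2 at 171 and Syt11, a synaptotagmin that does not bind calcium, at 143. The ranges of Syt1, Cplx2 and Syt11 overlapped from each to the next, so their order was not resolved. Snap47 (96.6), below the range of Syt11, was followed by Cplx1 (85.9), Syn2 (81.2) and Syt4 (64.5), each overlapping its neighbour. Snap47 shared 11.6% of its exonic bases with Jmjd4, and Syt4 shared 14.5% with Gm26658, both on the opposite strand. Use of strand in the counting was not stated, so these levels are uncertain.

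Within each family levels covered a wide range. Among synaptotagmins, Syt7, the slow calcium sensor of asynchronous release, was at 33.1 CPM per kb, Syt3 at 17.4, and the other fast sensors Syt2 and Syt9 were at 2.29 and 0.489. Among syntaxins, the recycling endosome syntaxin Stx12 was at 42.7, and the presynaptic syntaxin Stx1a at 25.8. The dendritic syntaxins Stx3 and Stx4a (Stx4) were at 8.20 and 8.93. Among R-SNAREs, the VAMPs, Vamp2 was highest at 32.1, then Vamp4 at 18.5, whereas Vamp1 was at 7.41. Snap91 (AP180, a clathrin adaptor of vesicle retrieval) was at 38.0 and Snap23, a SNAP-25 relative found in dendrites, at 4.05. Among syntaxin-binding proteins, Stxbp5l and Stxbp5, the tomosyns that compete for syntaxin, were at 30.9 and 14.0. Syn1 was at 30.5 and Syn3 at 1.04. Cplx4, Stx19 and Syt8 had at most 9, 1 and 3 counts in a library and were removed by the low-count filter, which left 54 members tested.

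**Figure D1:**
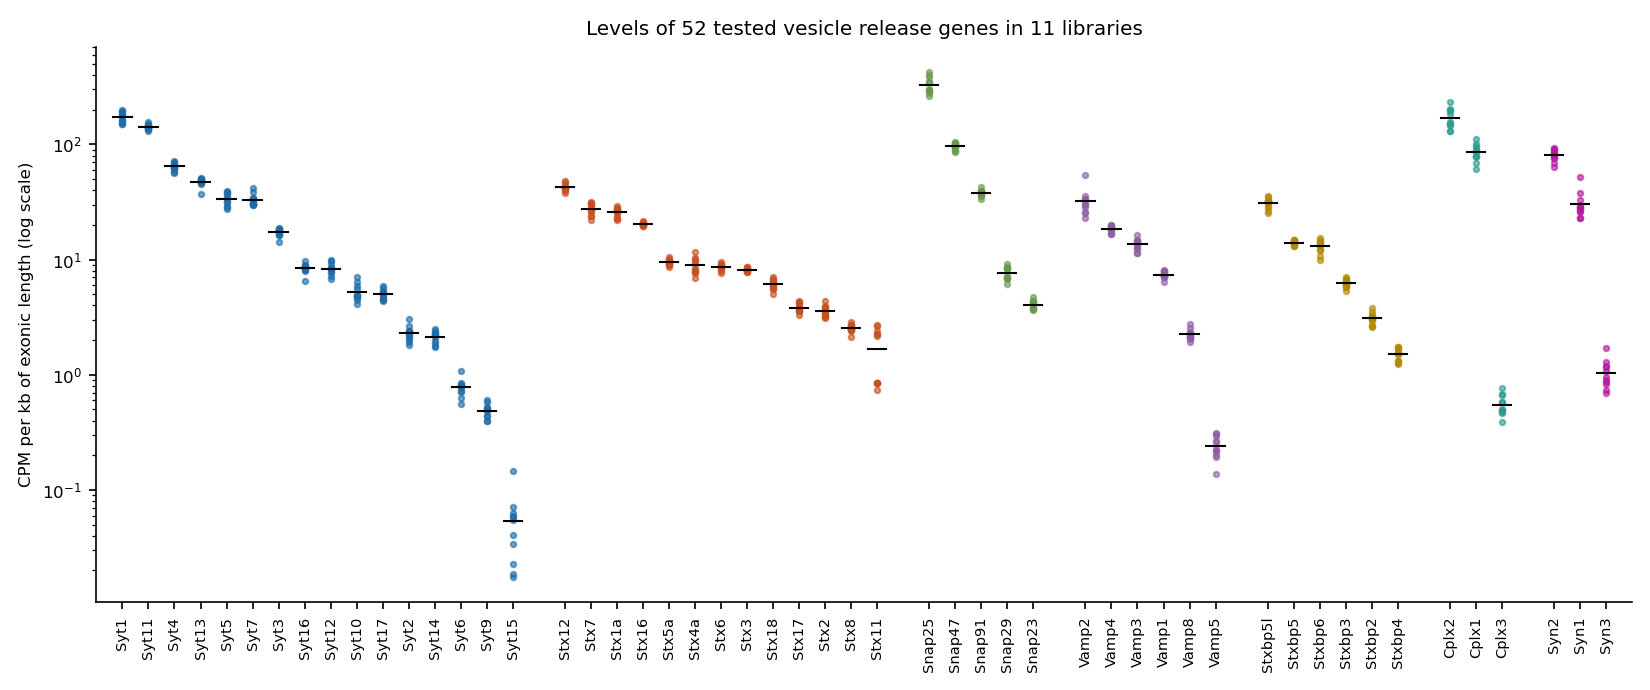
Level of 52 of the 54 tested members in CPM per kb of exonic length on a log axis, grouped by family; points are the 11 fitted libraries of all 4 groups and bars their means. Snap25 lies above every other member, and Stx11 separates into a lower and an upper set of points.

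The first question was whether LTP changed release genes at 1 hr. A call needed a change of more than 1.2-fold and a Benjamini-Hochberg adjusted p under 0.1, here over all genes tested. No member of 54 was called by edgeR's quasi-likelihood test, beside 0.789% of the 17736 genes tested. At an unadjusted p under 0.05 there were 4 members, beside 6.71% of all genes, and the smallest adjusted p was 0.573. DESeq2 and limma-voom also called 0. The median log2 fold change was -0.01, beside -0.001 for all genes, and 50 members lay within 1.2-fold. Groups did not overlap for 10 members, 7 higher and 3 lower in LTP, beside 22.6% of all genes.

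Vamp2, the main vesicle SNARE of synapses, had the smallest adjusted p of the members at 1 hr, with a difference under 1.2-fold. It measured 97.4 and 88.2 CPM in controls (100.2 in the library set aside) and 113, 97.9 and 110 CPM in LTP slices. Every LTP value lay above the fitted controls, but the lowest did so by under 1 CPM and lay below the library set aside. The log2 fold change was 0.21 ± 0.08, with an edgeR adjusted p of 0.573. With the animal as a replicate block, Vamp2 alone of the members was called, at 0.27 with an adjusted p of 0.0341. That fit rested on 2 pairs, since the partner of LTP replicate 2 was set aside.

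Syn3 had the largest positive difference at 1 hr, 0.49 ± 0.19 with an adjusted p of 0.583. Its controls were at 8.58 and 10.2 CPM, with 12.5 in the library set aside, and its LTP slices at 15.8, 14.5 and 9.13 CPM. LTP replicate 3 fell between the controls, and without it Syn3 was called at 0.70 with an adjusted p of 0.00438. It was also called at 0.49 with no filter beyond 1 count, with an adjusted p of 0.0151. Dendritic and other core genes were not called at 1 hr. Syt4 differed by 0.16 ± 0.06 (adjusted p = 0.667), and its groups did not overlap, at 238 and 245 CPM in controls and 260 to 271 CPM in LTP slices. Snap25 differed by -0.13 ± 0.07 (adjusted p = 0.828), Stx3 by 0.03 ± 0.08, Stx4a by 0.08 ± 0.09, Snap47 by -0.09 ± 0.07 and Syt1 by -0.04 ± 0.06.

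**Figure D2:**
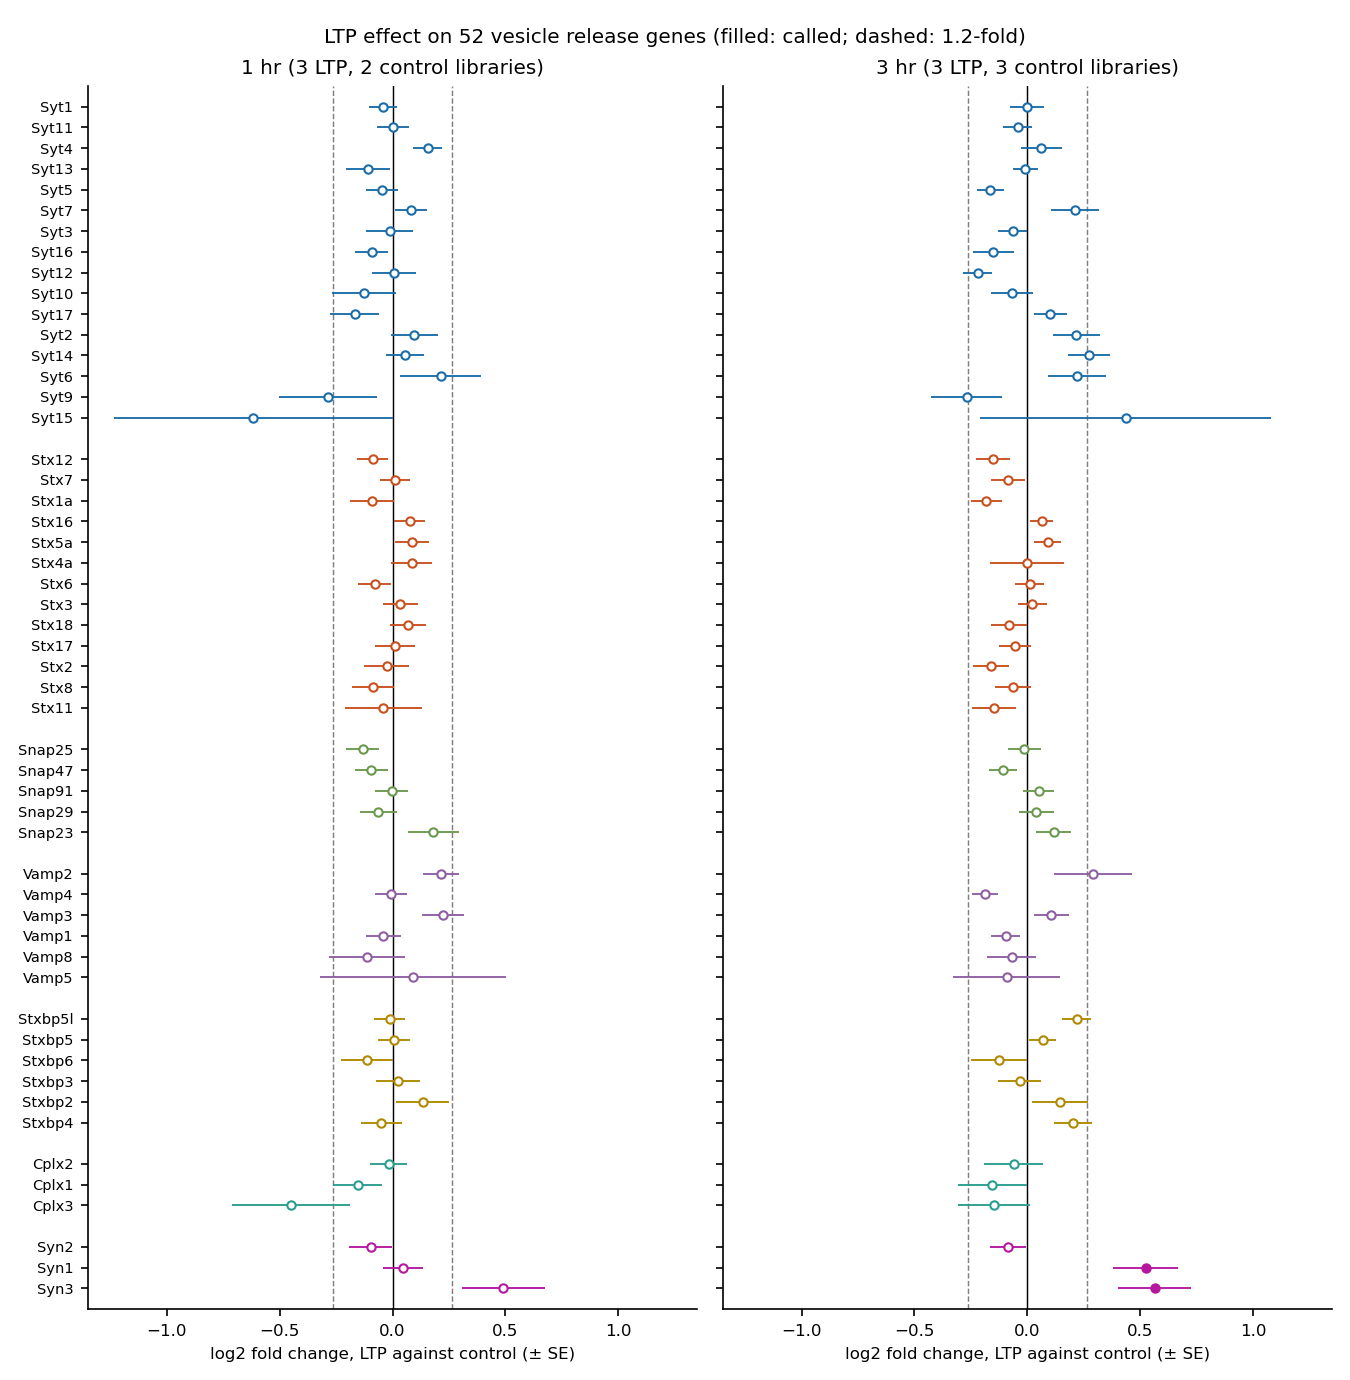
Log2 fold change of LTP against control (± SE) for 52 of the 54 tested members at 1 hr (left, 3 LTP and 2 control libraries) and 3 hr (right, 3 of each), colored by family; filled points were called and dashed lines mark 1.2-fold. The 2 filled points are Syn1 and Syn3 at 3 hr.

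At 3 hr, 2 of 54 members were called and both rose: the synapsins Syn1 and Syn3. The background was 6.60% of the 17508 genes tested. The median log2 fold change of the members was -0.01, beside -0.0025 for all genes, 48 members lay within 1.2-fold, and 9 had an unadjusted p under 0.05, beside 20.22% of all genes. Groups did not overlap for 14 members, 7 in each direction, beside 27.0% of all genes. DESeq2 called 3 members, adding the synaptotagmin Syt14, and limma-voom called 1, Syn1.

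Syn1, the synapsin gene on the X chromosome (chrX:20860511-20921004 in GRCm38, minus strand), measured 96.9, 93.0 and 94.6 CPM in 3 hr controls and 126, 108 and 172 CPM in 3 hr LTP slices. The groups did not overlap, and the LTP libraries were far more spread than the controls, at 135 ± 33.0 against 94.8 ± 1.96 CPM (SD, n = 3). Each animal was higher after LTP, by 0.38, 0.21 and 0.86 on the log2 scale with a pseudocount of 0.1 CPM. The fitted log2 fold change was 0.52 ± 0.14, with an edgeR adjusted p of 0.0861. LTP replicate 3 held the highest value, and without it the log2 fold change was 0.31 with an adjusted p of 0.0545. The call did not remain without LTP replicate 1 (0.57, adjusted p = 0.196) or without control replicate 1, 2 or 3 (0.54, 0.51 and 0.53, with adjusted p of 0.238, 0.288 and 0.203).

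Syn3 (chr10:86055125-86498896, minus strand), the least abundant synapsin, measured 11.7, 10.7 and 11 CPM in 3 hr controls and 21.1, 13.2 and 14.7 CPM in LTP slices. All LTP values lay above all controls, with replicate 1 the highest. The log2 fold change was 0.56 ± 0.16, with an adjusted p of 0.0971, and each of 3 animals was higher after LTP. Without LTP replicate 1 it was 0.33 with an adjusted p of 0.195, and without control replicate 1, 2 or 3 it was 0.60, 0.53 and 0.56 with adjusted p of 0.238, 0.322 and 0.223. limma-voom gave 0.53 with an adjusted p of 0.116. Timp3, on the opposite strand, shares 14.1% of the exonic bases of Syn3. Use of strand in the counting was not stated, so the values of Syn3 at both times and its call are uncertain.

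Syn2, the most abundant synapsin in these slices, was not called. Its controls at 3 hr were at 660, 633 and 584 CPM and its LTP slices at 531, 586 and 637 CPM, which overlapped, and the log2 fold change was -0.08 ± 0.08 with an adjusted p of 0.601. The sum of the 3 synapsins was 732 ± 39.4 CPM in 3 hr controls and 736 ± 76.9 CPM in 3 hr LTP slices (SD, n = 3).

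The synapsins are set beside their promoters here because forskolin acts through cAMP, and the cAMP-response element (CRE), TGACGTCA, is the motif that CREB family factors bind. RefSeq windows on GRCm38.p6, from 250 bases before to 50 after each gene start, were available for 44 of the 57 members, not including Syn3. A gene can have several windows, and the 44 members had 56. The CRE letters (the same on both strands) were found in 1.79% of all 32851 windows and in 2 of the 56 member windows, those of Syn1 and Stxbp3. The letters GCGGGGGCG, which EGR factors bind, were found on either strand in 2.91% of windows and in 6 of the 56 member windows, those of Cplx1, Stxbp5, Stxbp5l, Syn2, Syt16 and Vamp4. The shorter letters TGACG, which the CRE contains, were found on either strand in 20.8% of windows and 13 of the 56, and GCGTGGGCG in 0.612% and 0 of the 56. Below are the 250 bases before the start of Syn1 (chrX:20920919-20921168, minus strand), of Stxbp3, the other member with the CRE (chr3:108840503-108840752, minus strand), and of Syn2 (chr6:115134652-115134901, plus strand). Capitals mark the CRE at -159 to -152 in Syn1 and -108 to -101 in Stxbp3, and the EGR letters at -41 to -33 in Syn2, counted from the RefSeq start. That start lies 86 bases inside the GENCODE gene for Syn1 and 24 bases inside it for Stxbp3, so the last bases of both windows are within the gene as GENCODE gives it, and it is the same in both annotations for Syn2.
Syn1: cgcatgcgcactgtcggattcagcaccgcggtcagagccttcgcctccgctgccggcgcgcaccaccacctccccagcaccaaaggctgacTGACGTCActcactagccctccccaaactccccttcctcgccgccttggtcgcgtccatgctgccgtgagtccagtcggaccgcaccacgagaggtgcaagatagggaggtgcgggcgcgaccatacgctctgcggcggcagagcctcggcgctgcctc
Stxbp3: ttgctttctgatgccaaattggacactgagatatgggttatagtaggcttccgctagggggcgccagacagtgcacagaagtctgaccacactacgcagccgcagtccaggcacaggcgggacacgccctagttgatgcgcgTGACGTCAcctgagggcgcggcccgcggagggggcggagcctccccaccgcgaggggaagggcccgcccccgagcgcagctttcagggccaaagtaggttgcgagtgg
Syn2: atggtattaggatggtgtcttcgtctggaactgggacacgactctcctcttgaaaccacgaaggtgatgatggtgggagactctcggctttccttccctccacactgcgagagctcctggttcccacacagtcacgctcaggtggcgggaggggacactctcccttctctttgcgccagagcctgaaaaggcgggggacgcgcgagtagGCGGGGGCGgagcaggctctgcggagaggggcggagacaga
Both Syn1 and Stxbp3 held the CRE letters, and their LTP differences at 3 hr were unlike. Stxbp3, a ubiquitous syntaxin-binding protein, was at 34.4, 35 and 31.2 CPM in controls and 32.0, 36.5 and 28.7 CPM in LTP slices, with a log2 fold change of -0.03 ± 0.10 and an adjusted p of 0.880. A match of letters describes the window and does not show that a factor binds there.

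The core release genes other than synapsins did not pass at 3 hr, and some varied with 1 library. Vamp2 was at 128, 128 and 123 CPM in controls and 137, 117 and 205 CPM in LTP slices, with a log2 fold change of 0.29 ± 0.17 and an adjusted p of 0.381. LTP replicate 3 alone lay far above the rest, and replicate 2 lay below all controls. The 6 pyramidal markers summed to 3260, 2560 and 3930 CPM in the same 3 LTP libraries and to 2870 to 3000 CPM in controls. Replicate 3 was highest and replicate 2 lowest for this sum, for Vamp2 and for Syn1. Camk2a and Slc17a7 made up most of the sum, at 2126 ± 522 and 758 ± 140 CPM (mean ± SD) in 3 hr LTP slices. Wfs1, Fibcd1, Bok and Iyd were at 104 ± 20.7, 184 ± 10.7, 66.4 ± 7.08 and 9.1 ± 0.94 CPM. The 4 dentate granule markers summed to 221, 133 and 137 CPM in 3 hr LTP replicates 1, 2 and 3, beside 142 to 173 CPM in controls. Syn3 was likewise highest in replicate 1 and lowest in replicate 2. In 1 hr LTP replicates 1, 2 and 3 these markers summed to 200, 157 and 120 CPM, the same order as Syn3. In 1 hr control replicates 1 and 3 they summed to 175 and 156 CPM, the reverse of the order of Syn3. The part of these cells in the members' values was not tested.

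Leaving out LTP replicate 2 at 3 hr raised the number of members called from 2 to 9, the added members including Vamp2 (0.46), Syt7 (0.33), Syt2 (0.31), Syt14 (0.35) and Stxbp4 (0.27), with adjusted p between 0.0187 and 0.0707 (Syt14 and Stxbp4 were named after their values were seen). Leaving out LTP replicate 3 gave 3 calls, Syn1, Syn3 and Cplx1, the last at -0.40 with an adjusted p of 0.0176. Leaving out LTP replicate 1 or any of the 3 controls gave 0. The share of all genes called moved with these counts, from 6.60% to 12.2% without LTP replicate 2, 7.45% without LTP replicate 3 and 1.28% to 2.33% in the fits that called 0 members. Over the 54 members, LTP replicate 3 differed by more than 1.2-fold from the mean of the other LTP libraries for 11 members, LTP replicate 2 for 12 and LTP replicate 1 for 5, beside 0 to 4 for the 3 hr controls.

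**Figure D3:**
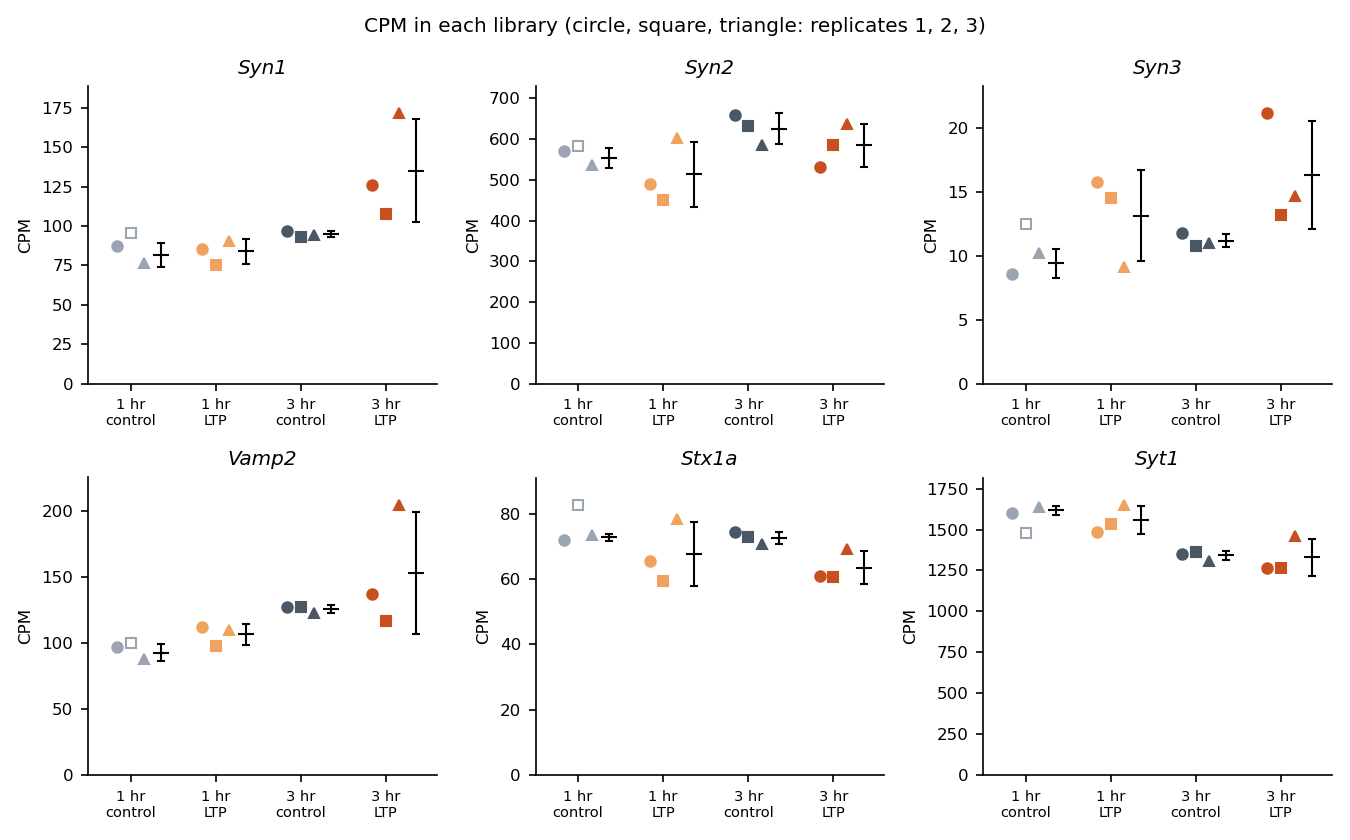
CPM of Syn1, Syn2, Syn3, Vamp2, Stx1a and Syt1 in each library by group (circle, square and triangle for replicates 1, 2 and 3; open square for the library set aside), with the mean ± SD of the fitted libraries in black. Syn1 and Syn3 LTP values at 3 hr all lie above their controls, those of Stx1a below them, and those of Syn2, Vamp2 and Syt1 overlap them.

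None of the other core genes was called for LTP at 3 hr. Syt1 was at 1351, 1365 and 1310 CPM in controls and 1264, 1264 and 1460 CPM in LTP slices, a log2 fold change of 0.00 ± 0.07, and Snap25 differed by -0.01 ± 0.07. Syt7 differed by 0.21 ± 0.11 (adjusted p = 0.306), Syt2 by 0.22 ± 0.10 (0.281) and Syt9 by -0.27 ± 0.16 (0.379). Stx1a was at 74.4, 72.9 and 70.7 CPM in controls and 60.8, 60.5 and 69.2 CPM in LTP slices, without overlap, and its log2 fold change of -0.18 ± 0.07 had an adjusted p of 0.185. Cplx1 and Cplx2 differed by -0.16 ± 0.15 and -0.06 ± 0.13, Vamp1 by -0.10 ± 0.06 and Snap91 by 0.05 ± 0.07.

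Genes of postsynaptic exocytosis were not called either. At 3 hr, Syt4, a synaptotagmin of dense-core vesicles, differed by 0.06 ± 0.09, Syt3 by -0.06 ± 0.06, Stx3 by 0.02 ± 0.06, Stx4a by 0.00 ± 0.16, Stx12 by -0.15 ± 0.07, Stxbp5 by 0.07 ± 0.06, Snap47 by -0.11 ± 0.06 and Snap23 by 0.12 ± 0.08. Their adjusted p values lay between 0.297 and 0.995. Stx4a varied most among the LTP libraries, at 24.5, 16.4 and 27.7 CPM, around controls at 22.3, 24.1 and 22.9 CPM. The Stx4a exons overlap another gene on the opposite strand over 5.25% of their bases.

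Other members had groups that did not overlap or a small adjusted p at 3 hr without a call. Stxbp5l (tomosyn-2), an inhibitor of SNARE assembly, was at 240, 227 and 215 CPM in controls and 273, 266 and 248 CPM in LTP slices, without overlap, and its log2 fold change was 0.22 ± 0.06, under 1.2-fold, with an adjusted p of 0.103. Vamp4, a SNARE of the Golgi and endosomes, was at 89.9, 91.4 and 83.3 CPM in controls and 76.4, 76.1 and 77.5 CPM in LTP slices, also without overlap and under 1.2-fold (-0.19 ± 0.06, adjusted p = 0.115). Syt12 and Syt14 were named after their values were seen. Syt12 had an adjusted p of 0.0994 but a log2 fold change of -0.22, under 1.2-fold. It shares 17.2% of its exonic bases with A930001C03Rik on the opposite strand, so its values are uncertain. Syt14 passed 1.2-fold at 0.27 ± 0.09 with an adjusted p of 0.140.

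Whether the LTP effect itself differed between 1 hr and 3 hr was tested as an interaction in 1 model of all 4 groups. No member passed at an adjusted p under 0.1 with edgeR, beside 0.0592% of 18584 genes, and 2 had an unadjusted p under 0.05, Syn1 and Stxbp5l, beside 6.59% of all genes. DESeq2 and limma-voom also called 0. For Syn1 the difference of effects was 0.49 ± 0.20 on the log2 scale with an adjusted p of 0.682, and for Syn3 it was 0.08 ± 0.29 with an adjusted p of 0.996. The calls of Syn1 and Syn3 at 3 hr are therefore not shown to be particular to that time.

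Release genes outside the member rule were read from a list of 65 active zone, vesicle and endocytosis genes. At 1 hr edgeR called 0 of them for LTP (6 at an unadjusted p under 0.05, beside 6.71% of all genes), and DESeq2 and limma-voom also called 0. At 3 hr 4 of 65 were called, 6.15% beside 6.60% of all genes, and all 4 were higher in LTP slices than in controls. Pclo (piccolo, an active zone scaffold) differed by 0.65 ± 0.10 and Doc2b (a calcium sensor) by 0.39 ± 0.11. Rph3a (rabphilin) differed by 0.39 ± 0.11 and Unc13b (Munc13-2, a priming factor) by 0.34 ± 0.06. Their edgeR adjusted p values were 0.0137, 0.0868, 0.0928 and 0.0239, in this order. DESeq2 called 5 and limma-voom 3. The list's median log2 fold change at 3 hr was -0.02. From 1 hr to 3 hr, Pclo, Rph3a and Unc13b differed by -0.74, -0.42 and -0.20 among controls, the last not called. Among LTP slices they differed by -0.06, 0.02 and 0.07, none called. The higher LTP values of Pclo and Rph3a at 3 hr thus stood beside controls that were lower than at 1 hr. Doc2b was called higher at 3 hr in both, by 0.34 among controls and 0.54 among LTP slices. The interaction test called 0 with edgeR (6 at an unadjusted p under 0.05, beside 6.59% of all genes), 0 with limma-voom and 1 with DESeq2.

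More genes were called between time points than between LTP and control. The study split the slices of an animal between LTP and time-matched controls, and it names no animal used at both 1 hr and 3 hr. The labels do not settle this, so time and animal cannot be told apart here. Among controls, 14 of 54 members were called, 5 higher and 9 lower at 3 hr, which is 25.9% beside 32.8% of all genes. With total counts in place of TMM as the scaling the split was 8 higher and 6 lower. Among LTP slices 14 were also called, 7 in each direction, again 25.9% beside 35.9% of all genes, and the split with GC offsets was 8 higher and 4 lower. Groups did not overlap for 17 members that were higher and 16 lower among controls (60.7% of all genes) and for 9 higher and 12 lower among LTP slices (44.9%). With no filter beyond 1 count the shares were 16 of 57 members beside 22.3% of genes among controls and 14 of 57 beside 24% among LTP slices, so the order of the members' share and the background depended on the filter.

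The contrasts of controls and of LTP slices share no library, although slices of the same animals enter both. In all, 8 of 54 members were called in both, beside 23.4% of all genes, and all 8 had the same direction. Of all genes, 23.3% were called in both in the same direction, which is 4330 of the 4344 called in both. Among the members, Stx11, Cplx2 and Vamp2 were higher at 3 hr, and Snap25, Snap29, Stx7, Syt5 and Syt10 lower. Another 6 were called among controls only and 6 among LTP slices only, beside 9.46% and 12.5% of all genes, and for none of these did the interaction test show that the contrasts differed. In neither contrast were 34 called, beside 54.6% of all genes.

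Stx11 (chr10:12938209-12964298, minus strand) stood apart from every other member in size. This syntaxin is best known from granule release by cytotoxic lymphocytes and is also found in other immune cells. It measured 3.54 and 3.55 CPM in 1 hr controls, with 4.35 in the library set aside, and 3.13, 3.56 and 3.58 CPM in 1 hr LTP slices. At 3 hr it measured 9.54, 11.5 and 11.1 CPM in controls and 9.11, 10.1 and 9.58 CPM in LTP slices. No library of 1 hr reached any library of 3 hr. Stx11 rose by 1.57 ± 0.12 among controls and 1.47 ± 0.11 among LTP slices (edgeR adjusted p = 9.65e-06 and 3.11e-06), and it was called under all 19 alternatives in each. The 4 microglia markers moved the other way, from a sum of 152 CPM in each 1 hr control to 96.7 to 109 CPM in 3 hr controls, with 3 of 4 called lower (Cx3cr1, P2ry12 and Tmem119) and none at 0. The part of other cells in the Stx11 difference was not tested.

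Snap25 (chr2:136713453-136782428, plus strand) gave the largest fall among controls. It was at 2875 and 2607 CPM in 1 hr controls (2389 in the library set aside) and 2365, 2355 and 2725 CPM in 1 hr LTP slices, against 2029, 1956 and 1893 CPM in 3 hr controls and 1775, 1957 and 2039 CPM in 3 hr LTP slices. All 3 hr values lay below all 1 hr values. It fell by 0.51 on the log2 scale among controls (SE 0.08, adjusted p = 0.000693) and by 0.39 among LTP slices (SE 0.08, adjusted p = 0.00163). The call among controls remained under all 19 alternatives, but offsets for GC content, which is 38.7% in Snap25, brought it to -0.27 with an adjusted p of 0.0858. Among LTP slices these offsets gave -0.17 with an adjusted p of 0.215, and the call was lost. Map2, another neuron marker, fell by 0.35 among controls, whereas Rbfox3 and Tubb3 differed by 0.07 and -0.01 and were not called.

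Cplx2 and Vamp2 rose. Cplx2 (chr13:54371349-54383917, plus strand) was at 771 and 651 CPM in 1 hr controls, with 783 in the library set aside, and 963, 980 and 1007 CPM in 3 hr controls. LTP slices had 721, 644 and 728 CPM at 1 hr and 899, 759 and 1145 CPM at 3 hr. It rose by 0.44 ± 0.13 among controls (adjusted p = 0.0235) and 0.40 ± 0.12 among LTP slices (adjusted p = 0.0164). The first call was lost without 1 hr control replicate 3 (0.36, adjusted p = 0.169) and the second without 3 hr LTP replicate 3 (0.24, adjusted p = 0.0533).

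Vamp2 (chr11:69088490-69092384, plus strand) rose by 0.41 ± 0.17 among controls (adjusted p = 0.0757) and 0.50 ± 0.15 among LTP slices (adjusted p = 0.0172), from the values given above. Its groups did not overlap in either contrast. The call among LTP slices was lost without 3 hr LTP replicate 3, with a log2 fold change of 0.24. The call among controls did not remain without any 1 of the 5 control libraries, with log2 fold changes from 0.38 to 0.53 and adjusted p from 0.106 to 0.266, nor with GC offsets (0.33, adjusted p = 0.133).

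Snap29, which acts in the fusion of autophagosomes with lysosomes, and Stx7, which acts in that of late endosomes, fell in both time contrasts. Snap29 was at 31.4 and 29.4 CPM in 1 hr controls (27.0 in the library set aside) and 24.7, 23.9 and 21.2 CPM in 3 hr controls, with 28.4, 29.4 and 29 CPM and 23.4, 23.7 and 23.9 CPM in LTP slices at 1 and 3 hr. It fell by 0.42 among controls (SE 0.08, adjusted p = 0.0020) and by 0.31 among LTP slices (SE 0.07, adjusted p = 0.00523), and only GC offsets, of 19 alternatives in each contrast, lost a call, that among LTP slices (-0.19, adjusted p = 0.0508).

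Stx7 fell by 0.27 among controls (SE 0.08, adjusted p = 0.0175) and by 0.36 among LTP slices (SE 0.07, adjusted p = 0.0015). The fall among controls lay close to 1.2-fold and was called in 3 of 19 alternatives. It was not called with DESeq2, DESeq2 size factors, total counts, either other filter, GC offsets or the library set aside put back. It was lost without 1 hr control replicate 3 (-0.19, adjusted p = 0.215), 3 hr control replicate 2 (-0.26, adjusted p = 0.0534) or 3 (-0.19, adjusted p = 0.101), and without any 1 of the LTP libraries (under 1.2-fold in each, adjusted p from 0.0104 to 0.0384). The fall among LTP slices remained called under 18 of 19, GC offsets being the exception (-0.20). Stx8, Stx17 and Stx18 were also below 0 in both contrasts, at -0.21, -0.21 and -0.20 among controls and -0.18, -0.27 and -0.34 among LTP slices, with Stx17 and Stx18 called in the latter. Vamp8, a VAMP of the same late endosomal and autophagosomal fusion steps, differed by -0.03 ± 0.15 and 0.02 ± 0.13. These 4 were named after their values were seen, and no list of such genes was tested. The Stx17 call remained under 7 of 19 alternatives. It was lost with DESeq2, DESeq2 size factors, total counts, no filter beyond 1 count, GC offsets and the library set aside put back. The Stx17 call was also lost without either fitted 1 hr control (-0.26), any 1 hr LTP library (-0.22 to -0.26) or 3 hr LTP replicate 3 (-0.23), whereas that of Stx18 remained under all 19. Stx18 shares 32.3% of its exonic bases with other genes on the opposite strand, so its values are uncertain.

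Syt5 and Syt10, calcium-binding synaptotagmins, fell in both. Syt5 was at 94.3 and 90.4 CPM (91 set aside) in 1 hr controls and 74.9, 75.9 and 79.2 CPM in 3 hr controls, and at 92.6, 88.4 and 84.8 CPM and then 69.4, 65.8 and 68.4 CPM in LTP slices. All 3 hr values lay below all 1 hr values, and within 3 hr all LTP values lay below all controls. Syt5 fell by 0.30 among controls (SE 0.06, adjusted p = 0.00359) and by 0.40 among LTP slices (SE 0.06, adjusted p = 0.000206). The call among controls was lost, through its fold change, without 1 hr control replicate 1 (-0.225) or 3 hr control replicate 1 (-0.26), with total counts (-0.26) and with the library set aside put back (-0.26). Among LTP slices, where Syt5 gave the largest fall of the members, it remained called under all 19.

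Syt10, near 10 CPM and named after its values were seen, fell by 0.42 among controls (SE 0.13, adjusted p = 0.0277) and by 0.35 among LTP slices (SE 0.12, adjusted p = 0.0348). Its LTP groups overlapped, at 8.87 to 11.9 CPM and 7.57 to 9.11 CPM. The call among controls was lost without 1 hr control replicate 1 (-0.20, adjusted p = 0.405) and with the library set aside put back (-0.30, adjusted p = 0.105). That among LTP slices was lost without 1 hr LTP replicate 1 (-0.23), 1 hr LTP replicate 2 (-0.30) or 3 hr LTP replicate 3 (-0.29), with adjusted p between 0.12 and 0.198.

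**Figure D4:**
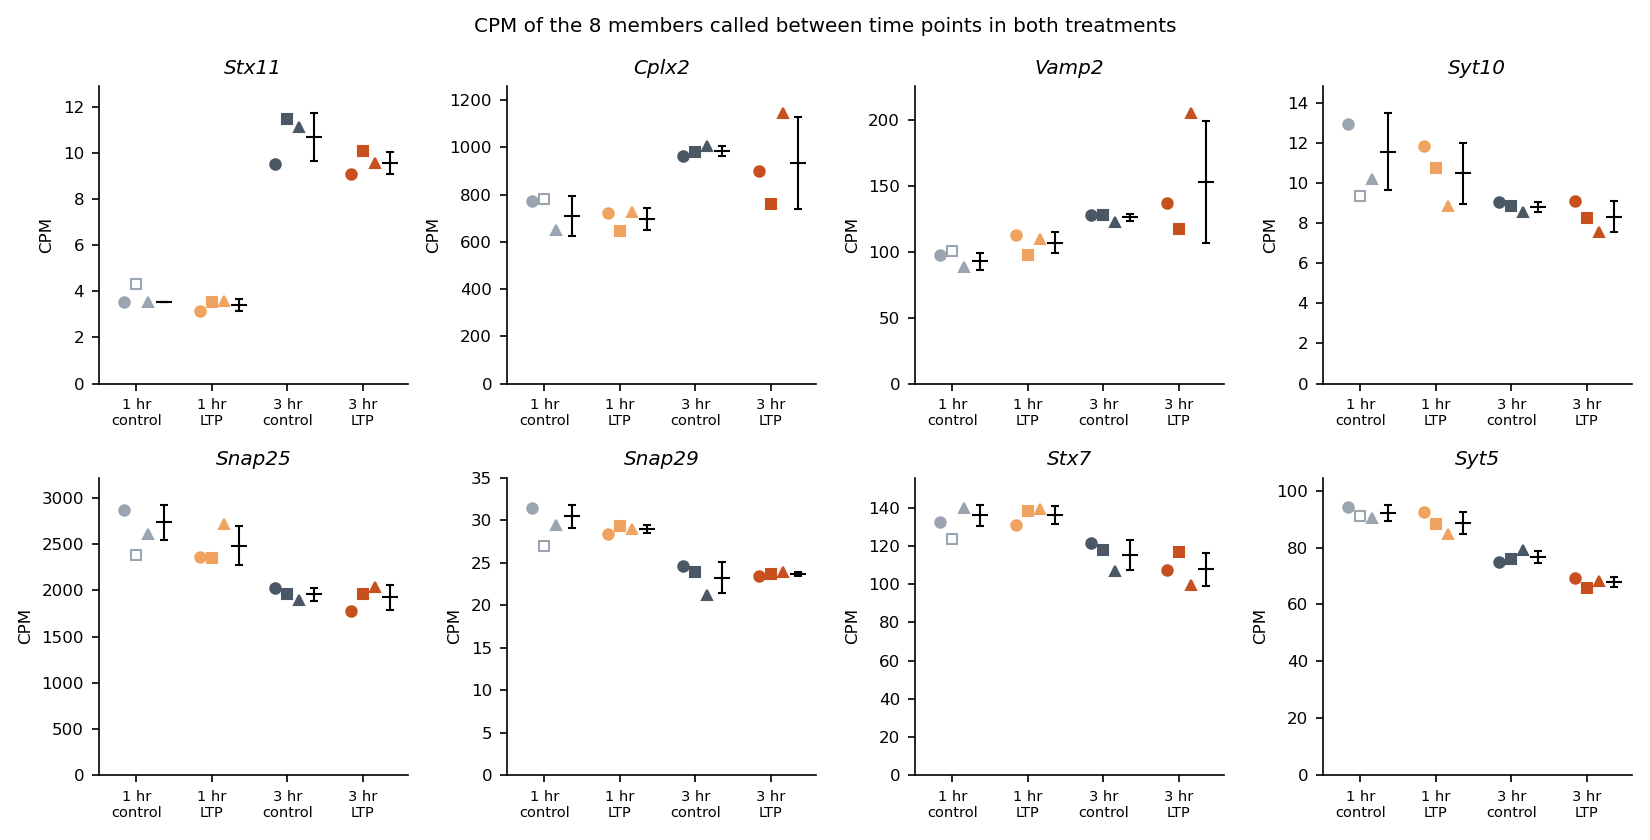
CPM in each library of the 8 members called between time points in both treatments (symbols as in the plot of synapsins; black, mean ± SD of the fitted libraries). Stx11, Cplx2 and Vamp2 are higher at 3 hr and Syt10, Snap25, Snap29, Stx7 and Syt5 lower, with overlap only for the LTP groups of Syt10.

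Members called in a single contrast included more of the core machinery. Among LTP slices Syn1 rose by 0.67 ± 0.13 between time points (adjusted p = 0.00156), from 85.5, 75.4 and 90.7 CPM at 1 hr to the 3 hr values above, and the groups did not overlap. It remained called under all 19 alternatives, with log2 fold changes from 0.41 with GC offsets to 0.81 without 3 hr LTP replicate 2. Among controls Syn1 differed by 0.19 ± 0.15 (adjusted p = 0.366). Syt2 rose by 0.37 ± 0.10 among LTP slices (adjusted p = 0.0119), also under all 19 alternatives, and differed by 0.24 ± 0.11 among controls. There it was not called in the main fit, but 7 of 19 alternatives called it higher at 3 hr.

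Syt1 fell by 0.30 among controls (SE 0.08, adjusted p = 0.0107), from 1599 and 1635 CPM (1480 set aside) to 1351, 1365 and 1310 CPM, and it differed by -0.25 ± 0.07 among LTP slices, under 1.2-fold. Its call was lost without 1 hr control replicate 3 (-0.245) and 3 hr control replicate 3 (-0.26), with total counts (-0.26), with the library set aside put back (-0.23) and with GC offsets (-0.17). Of the other members called among controls only, all but Stxbp5l named after their values were seen, Stxbp5l, Stxbp4 and Syt14 fell by 0.37, 0.48 and 0.36, and Syt12 and Stx2 rose by 0.28 and 0.26. Stxbp4 kept its call under all 19 alternatives, and the other 4 under 16 or 17. Without 1 hr control replicate 3 the calls of Stxbp5l (-0.26), Syt14 (-0.30) and Stx2 (0.24) were lost, that of Syt12 without 1 hr control replicate 1 (0.22), and that of Stx2 also without 3 hr control replicate 3. GC offsets lost the calls of Stxbp5l (-0.21), Syt14 (-0.17), Syt12 (0.09) and Stx2 (0.18), and the library set aside, put back, those of Stxbp5l (-0.25) and Syt12 (0.25). For Stxbp5l, Stxbp4 and Syt14 the 3 hr LTP values all lay above the 3 hr controls, and for Syt12 and Stx2 below them, whereas for Syt1 they overlapped. Of all genes, 27.0% had 3 hr groups without overlap. The same 3 hr controls entered the calls by which these members were chosen, so the comparison is not independent of that choice, and no conclusion is drawn from it.

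**Figure D5:**
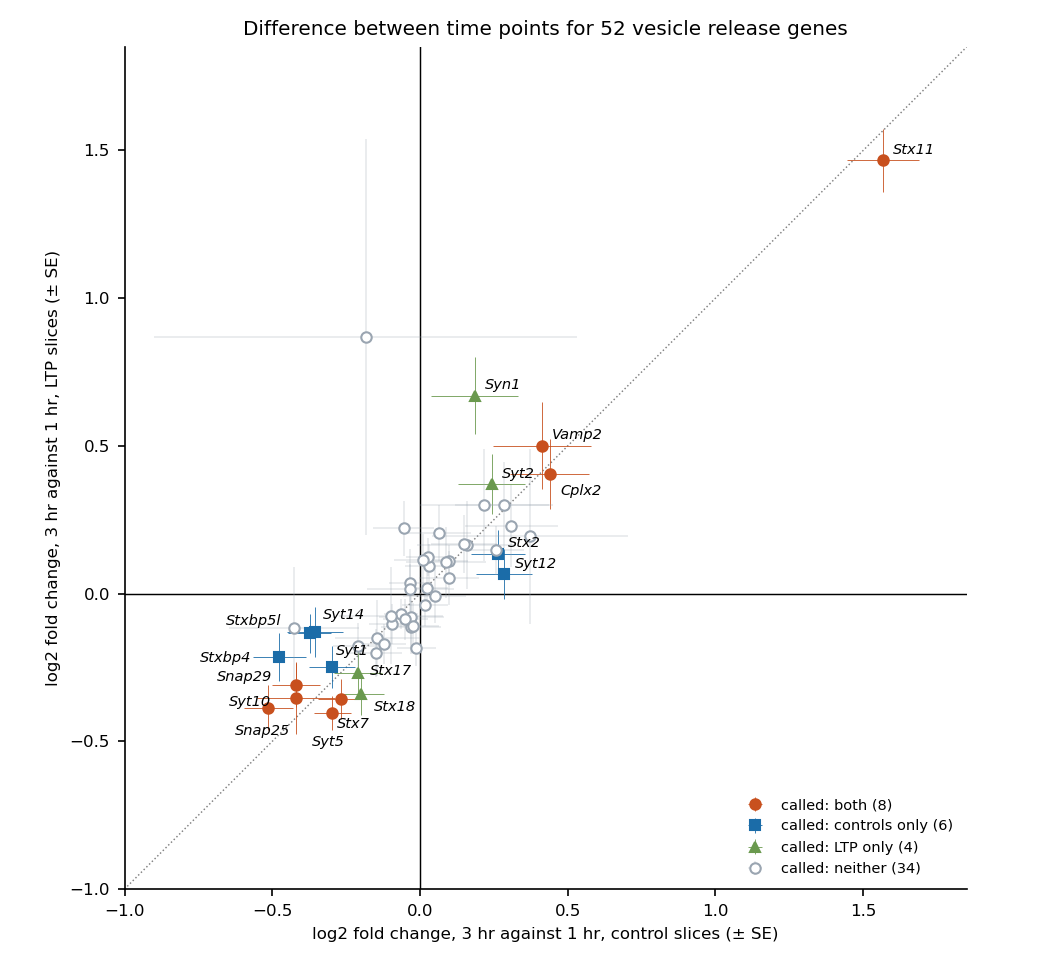
Log2 fold change of 3 hr against 1 hr (± SE) in control slices (x axis) and LTP slices (y axis) for 52 of the 54 tested members, marked by where they were called; the dotted line marks equal differences. The 8 members called in both lie in the upper right or lower left, with Stx11 far from the rest and 34 members called in neither.

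Of the 65 other release genes, 19 were called between time points among controls, 6 higher and 13 lower, and 21 among LTP slices, 10 higher and 11 lower. These shares of 29.2% and 32.3% stand beside 32.8% and 35.9% of all genes. Pclo fell by 0.74 among controls (SE 0.10, adjusted p = 0.000196) and differed by -0.06 ± 0.09 among LTP slices (adjusted p = 0.656). Bsn (bassoon, the partner scaffold) rose by 0.87 ± 0.16 among LTP slices (adjusted p = 0.00104) and differed by 0.28 ± 0.18 among controls (adjusted p = 0.263). The interaction test did not show that these contrasts differed, at 0.69 ± 0.13 for Pclo (adjusted p = 0.140) and 0.60 ± 0.24 for Bsn (adjusted p = 0.668). Rims1 and Rims2, scaffolds that recruit vesicles to calcium channels, fell by 0.38 and 0.39 among controls, whereas the short family members Rims3 and Rims4 rose by 0.34 and 0.37. Among LTP slices the 4 differed by -0.25, -0.33, 0.37 and 0.50, the first under 1.2-fold.

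In all, 33 of the 54 tested members were called in neither an LTP comparison nor a time contrast, beside 51.9% of the 17071 genes tested in all of these. They included Stx1a, Stx3, Stx4a, Stx12, Stxbp5, Snap23, Snap47, Snap91, Syn2, Cplx1, Vamp1, Vamp4, Syt3, Syt4, Syt7, Syt9 and Syt11. Some alternatives did call members of this list. With GC offsets edgeR called Stx1a lower at 3 hr among controls (-0.30, adjusted p = 0.0211) and LTP slices (-0.36, adjusted p = 0.00312). The same offsets called Snap23 higher among controls (0.27, adjusted p = 0.0458). Stx4a was called higher among controls in 5 of 19 alternatives. Some fits without 1 library also called Cplx1, Stx4a, Syn2 or Syt7. Vamp3, an endosomal VAMP named after its values were seen, was also among the 33, although 15 of 19 alternatives called it higher at 3 hr among controls. It was at 32.9 and 33.1 CPM in 1 hr controls (32.0 set aside) and 41.0, 41.7 and 38.0 CPM in 3 hr controls, without overlap, and its log2 fold change of 0.26 ± 0.09 lay just under 1.2-fold with an adjusted p of 0.0521. Among LTP slices it differed by 0.15 ± 0.08 (adjusted p = 0.185). For Snap91, 12 libraries lay between 309 and 393 CPM, and for Stx3 between 44.4 and 49.5 CPM. Syt11 lay between 686 and 819 CPM. An edgeR call needs a fold over 1.2, so smaller differences in these genes were not called whatever their p.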

How the data were processed

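RNA-seq libraries of rRNA-depleted total RNA (stranded kit) came from 12 samples in 4 groups. The authors aligned paired-end reads with STAR to mm10 (GRCm38) and deposited raw counts per gene, not normalized, in 1 table per time point; DESeq2 is named in their processing notes, and use of strand and the annotation release in counting are not given in the sources used here. Of 41091 IDs in each table, 40217 matched GENCODE M21, which gave symbols, types, exonic lengths and coordinates.

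Counts were tested with edgeR 4.0.16 (R 4.3.3) over all genes, with quasi-likelihood F tests, TMM, filterByExpr and group as the only term: each time point alone for LTP, and 1 model of all groups for time contrasts and the interaction. A call needed more than 1.2-fold (not for the interaction) and a Benjamini-Hochberg adjusted p under 0.1. The scripts were tested on simulated data. Within a time point, the labels give each animal 1 control and 1 LTP library, and the libraries of a group come from separate animals. Pairing comes from that shared animal, although deviations of paired libraries from their group means correlated at only -0.154 to 0.212 over 18584 genes. Replicate numbers were taken to pair nothing across time points.

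Alternatives were DESeq2 1.42.0, limma-voom (limma 3.58.1), DESeq2 size factors, total counts, no filter or at least 10 counts in every library, a replicate block, the library set aside put back and each library left out. Offsets for GC content (a spline with 5 degrees of freedom per library) were chosen after seeing the data. The members and the lists of 65 release genes and of cell type markers were chosen with earlier results of these data known. Genes were named if called for LTP or in the interaction, if called in both time contrasts without overlap, as the 2 highest of each family per kb, or as core or postsynaptic release genes; others are said to be chosen after seeing their values. P-values measure only the spread between these libraries. Results of 2 members are not reported here.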

Additional observations from a re-analysis of the deposited data

How the results depend on the processing

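The count of members called for LTP at 1 hr was 0 and became 1 with the replicate block (Vamp2), 1 with no filter beyond 1 count (Syn3), and 1 with GC offsets and the replicate block together (Syn3); leaving out a library gave 0 to 1. The share of all genes called at 1 hr went from 0.789% to 1.16% with the block, 1.32% with no filter and 1.79% with GC offsets and the block. At 3 hr the count of 2 became 3 with DESeq2 and 1 with limma-voom, and leaving out a library gave 0 to 9. Beside these counts, the share of all genes went from 6.60% to 7.6%, 6.51% and 1.28% to 12.2%. With the replicate block the count of members stayed at 2 at 3 hr, beside 9.49% of all genes, and at 0 for the interaction. The block changed no other call of a member. The interaction gave 0 under every alternative run. Members called between time points numbered 14 among controls, 10 with the library set aside put back and 7 to 16 with a library left out; among LTP slices 14 became 9 to 20, with 9 without 3 hr LTP replicate 3 and 20 without 3 hr LTP replicate 2. GC offsets gave 10 calls among controls, 7 of them shared, and 12 among LTP slices, 8 of them shared. The share of all genes called moved too: among controls from 32.8% to 27.4% with the library put back, 24.9% with GC offsets and 21.9% to 34.8% with a library left out, and among LTP slices from 35.9% to 28.2% with GC offsets and 29.5% to 40.7% with a library left out. No called member changed direction under any alternative. A fit that left 1 control library at 1 hr assumed that it varies like the other groups. Causes of these shifts were not tested. With 2 or 3 libraries per group, small differences could not be resolved: the median SE of the members' LTP log2 fold changes was 0.09 at 1 hr and 0.08 at 3 hr.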
